A study of Danio rerio with 18 samples.

Results

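The BH3-only genes encode small proteins that start cell death at the mitochondrion. Their BH3 segment docks into the groove of larger Bcl2 family proteins, where it blocks the protective ones (Bcl2, Bcl-xL, Mcl1) or activates the pore formers Bax and Bak, so that cytochrome c leaves the mitochondrion and caspases are switched on. The transcription factor p53 is known to raise the transcription of bbc3 (puma) and pmaip1 (noxa) after DNA damage, and in zebrafish embryos puma is known to be needed for most of the cell death that radiation causes. The list taken here names 9 zebrafish genes: bbc3, pmaip1, bcl2l11 (bim), bmf1, bmf2, bida, bada, badb and bik. They were found by symbol, ignoring case, and 8 of the 9 have a row among the 32057 genes of the expression tables, whereas bmf1 is not analysed here. All 8 passed the filter of at least 1 TPM in at least 2 libraries, as did 18575 genes in all. For bmf2 this rested on 2 libraries, those of the wild type at 3 h after irradiation, so its test is of a gene that entered through the group where it was highest. A TPM value is the abundance of a gene's transcripts per unit of its length, on a scale that has the same total in every library.

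RNA came from whole zebrafish embryos X-irradiated at 30 h after fertilization with 30 Gy, at 5 Gy per min, or left untreated. The triple mutant (puma -/- noxa -/- p21 -/-) was sampled untreated and at 1 h, 2 h and 3 h, the p53 mutant (p53 -/-) untreated and at 1 h and 3 h, and the wild type (p53 +/+) at 3 h and untreated, with 2 libraries in each of 9 groups. The triple mutant thus keeps p53 but carries mutations in 2 of the genes described here, bbc3 and pmaip1. The labels do not describe the mutant alleles, the age of the untreated embryos at collection, or whether separate clutches gave the 2 libraries of each group, so p-values measure the spread between libraries only. In whole embryos a change of RNA per cell and a change in the number of cells that hold it cannot be told apart.

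The depth of each library is unknown from TPM values. The mutated genes of the triple mutant were transcribed, with cdkn1a (p21) at up to 65.78 TPM, so their levels do not check its genotype. All 11 measured marker genes of embryonic muscle, epidermis, neurons, blood, lens and hatching gland were detected in every library, the lens gene CRYAA at 0.37 to 5.93 TPM. The libraries of 3 groups (untreated p53 mutant, p53 mutant at 1 h, untreated wild type) stood apart from each other: in each, 1 library held 304.18 to 630.93 TPM of 5.8S ribosomal RNA and the other 13.59 to 52.8 TPM, while the other 12 libraries were listed at 0.

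In embryos that had not been irradiated, bida and badb made up most of the BH3-only transcripts. The gene bida encodes Bid, which caspase-8 cuts into an active form, and badb encodes a Bad protein, which growth factor signalling holds in check by phosphorylation. bida stood at 23.82 and 26.18 TPM in the untreated triple mutant, at 14.91 and 15.09 TPM in the untreated p53 mutant and at 11.87 and 12.25 TPM in the untreated wild type. badb stood at 16.07 and 16.59 TPM in the untreated triple mutant, at 12.67 and 14.77 TPM in the untreated p53 mutant and at 15.34 and 12.32 TPM in the untreated wild type. Their joint share of the summed TPM of the 8 genes was 61.0% to 74.9% in these 6 libraries. The other 6 genes each stayed at or below 6.28 TPM there, and bbc3 and bmf2 were the lowest or next to lowest in 5 of the 6, with bcl2l11 lowest in replicate 1 of the wild type. Each genotype has its own expression table, so genotype and table cannot be told apart, and these levels are set side by side without a test.

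**Figure D1:**
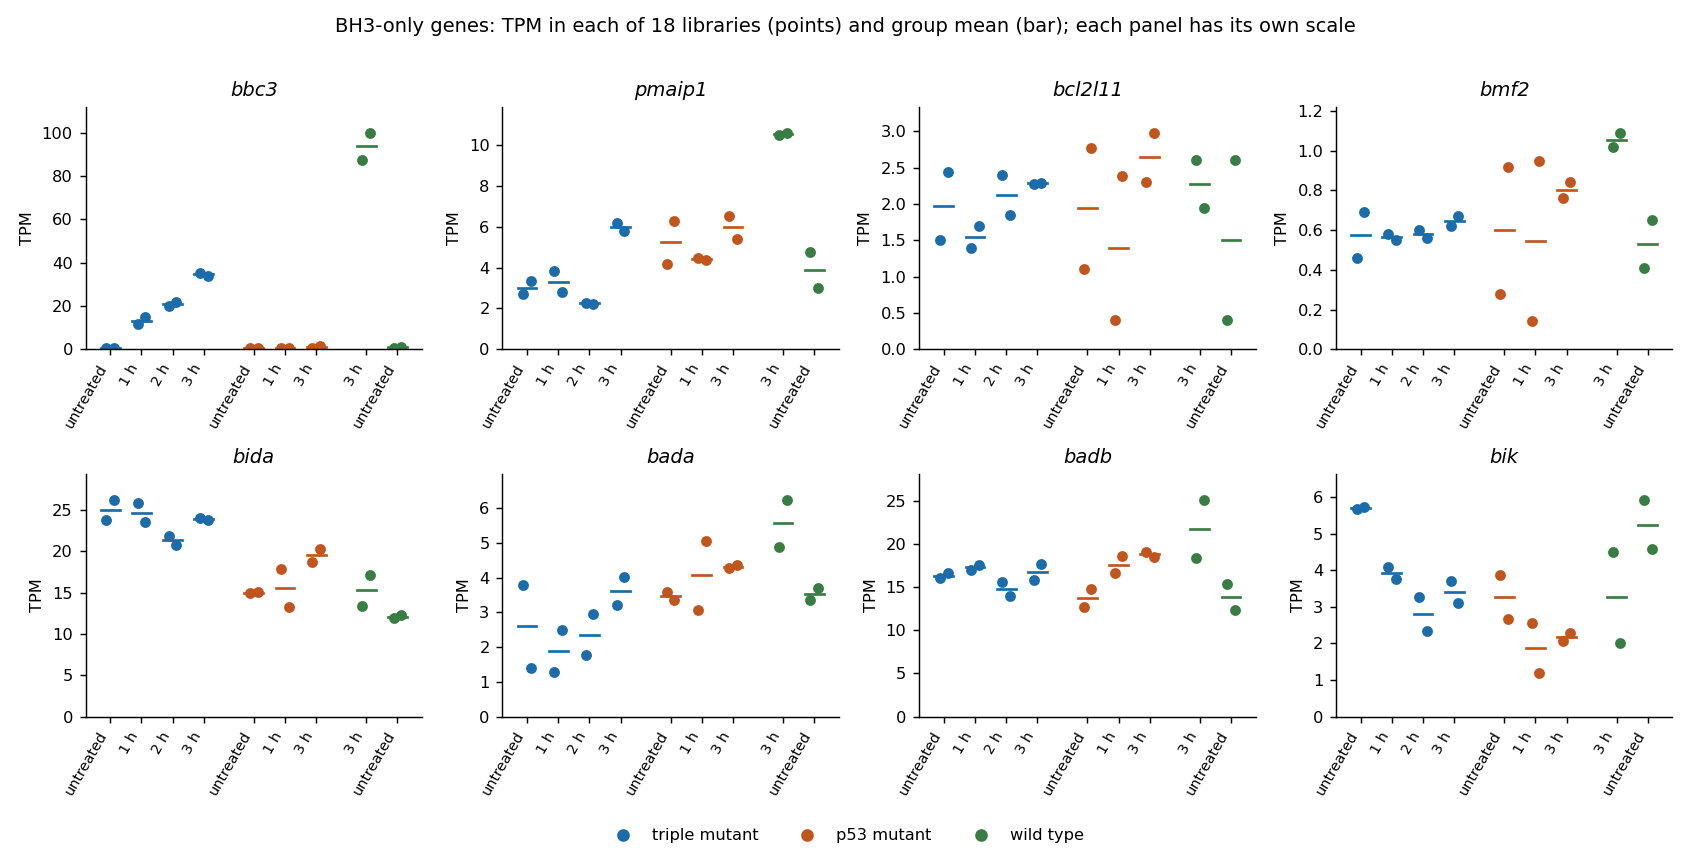
TPM (y axis, from 0, own scale per gene) of the 8 BH3-only genes in each library, by genotype and time after irradiation (x axis). Points are libraries and bars are group means (n = 2). bbc3 reaches 33.81 to 35.35 TPM in the triple mutant at 3 h and 87.49 to 100.04 TPM in the wild type at 3 h, and stays at or below 1.28 TPM in all p53 mutant libraries.

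The puma gene bbc3 (ENSDARG00000069282) rose steeply after irradiation in the genotypes that keep p53. In the triple mutant it stood at 0.58 and 0.72 TPM without irradiation, at 11.72 and 14.72 TPM at 1 h, at 20.11 and 21.83 TPM at 2 h and at 35.35 and 33.81 TPM at 3 h. No library of a time overlapped with those of the time before, and the group means at 1 h, 2 h and 3 h were 20.3, 32.3 and 53.2 times the untreated mean. On the log2(TPM + 1) scale the rise was 3.10 (SE 0.198) at 1 h, 3.74 (SE 0.198) at 2 h and 4.43 (SE 0.198) at 3 h, with adjusted p of 2.49e-05, 2.96e-06 and 2.73e-07 (limma, two-sided, Benjamini-Hochberg over 18575 genes). Of all genes tested, bbc3 had the largest positive change at 2 h and 3 h and the second largest at 1 h.

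The step from 1 h to 3 h in the triple mutant was 1.33 (SE 0.198, limma adjusted p = 0.00912). This call was lost with a pseudocount of 0.1 TPM and without 1 h replicate 1, 3 h replicate 1 or 3 h replicate 2, where the adjusted p reached 0.174.

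Wild type embryos had bbc3 at 87.49 and 100.04 TPM at 3 h, against 0.80 and 1.15 TPM without irradiation. The mean at 3 h, 93.8 ± 8.87 TPM (SD, n = 2), was 96.2 times that of untreated embryos, 0.975 ± 0.247 TPM (SD, n = 2). The rise was 5.59 (SE 0.198, limma adjusted p = 1.83e-08), the third largest positive change of all genes tested.

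Without p53, bbc3 stayed near 1 TPM. Its levels were 0.40 and 0.67 TPM without irradiation, 0.58 and 0.78 TPM at 1 h and 0.77 and 1.28 TPM at 3 h. The libraries at 3 h lay above the untreated ones, as for 36.4% of all genes in the higher direction, and those at 1 h overlapped with them. The change was 0.39 (95% interval -0.04 to 0.82, limma adjusted p = 0.551) at 3 h and 0.13 (95% interval -0.30 to 0.56) at 1 h. The median change of all genes at 3 h was 0.17. The change at 3 h was not called under any alternative that kept 2 libraries in each group. It was 0.52 when the 3 libraries of low 5.8S content were left out, which left 1 untreated library.

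The responses of bbc3 differed between genotypes with and without p53. At 3 h the triple mutant response exceeded the p53 mutant one by 4.04 (SE 0.279, limma adjusted p = 2.15e-05), and at 1 h by 2.97 (SE 0.279, limma adjusted p = 0.00192). The p53 mutant response minus that of the wild type at 3 h was -5.19 (SE 0.279, limma adjusted p = 1.8e-06). These 3 calls, and those against untreated embryos in the triple mutant and the wild type, were made under every alternative run for them.

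The triple mutant and the wild type also had unlike bbc3 levels at 3 h, with a triple mutant mean 0.369 times that of the wild type. The difference of the 2 responses, -1.16 on the log2 scale (95% interval -1.77 to -0.55), missed the threshold (limma adjusted p = 0.388), with an unadjusted p of 0.00142. It was called with a pseudocount of 5 TPM (-1.24, limma adjusted p = 0.0189), without the 3 libraries of high 5.8S content (-1.03, adjusted p = 0.0197) and without the 3 of low content (-1.28, adjusted p = 0.0093). Median-of-ratios scaling gave the smallest difference of all settings run, -0.77 (limma adjusted p = 0.47). The background for this comparison was 0.0592% of all genes called in either direction, and limma called 0 of the 8 BH3-only genes. At an unadjusted p under 0.05 there were bbc3 and badb, and the share of all genes under that rule was not counted.

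The share of bbc3 among the BH3-only transcripts grew with time after irradiation where p53 was intact. The 8 genes summed to 54.63 and 57.08 TPM in the untreated triple mutant, 65.74 and 67.13 TPM at 1 h, 67.93 and 66.43 TPM at 2 h and 91.21 and 91.15 TPM at 3 h. The wild type sum was 142.76 and 164.18 TPM at 3 h, against 42.86 and 40.25 TPM without irradiation. The share of bbc3 in the sum was 1.06% and 1.26% in the untreated triple mutant, 17.8% and 21.9% after 1 h, 29.6% and 32.9% after 2 h, and 38.8% and 37.1% after 3 h. In the wild type it was 61.3% and 60.9% at 3 h, against 1.87% and 2.86% without irradiation, and in the p53 mutant it stayed between 0.975% and 2.29%. Without bbc3 the sum was 53.2 to 56.6 TPM in the group means of the triple mutant, except 46.2 TPM at 2 h, and 59.7 TPM in the wild type at 3 h, against 40.6 TPM in untreated wild type embryos. In the p53 mutant, which lacks a called bbc3 change, it was 43.2 TPM without irradiation, 45.5 TPM at 1 h and 54.2 TPM at 3 h. The p53 mutant sum of all 8 genes was 43.8 TPM untreated and 55.2 TPM at 3 h. With median-of-ratios scaling it was 41.2 and 45.0. The sum without bbc3 was not taken with this scaling. Its largest parts in the wild type, bida and badb, had changes at 3 h of 0.02 and 0.31 with it, in place of 0.31 and 0.61.

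**Figure D2:**
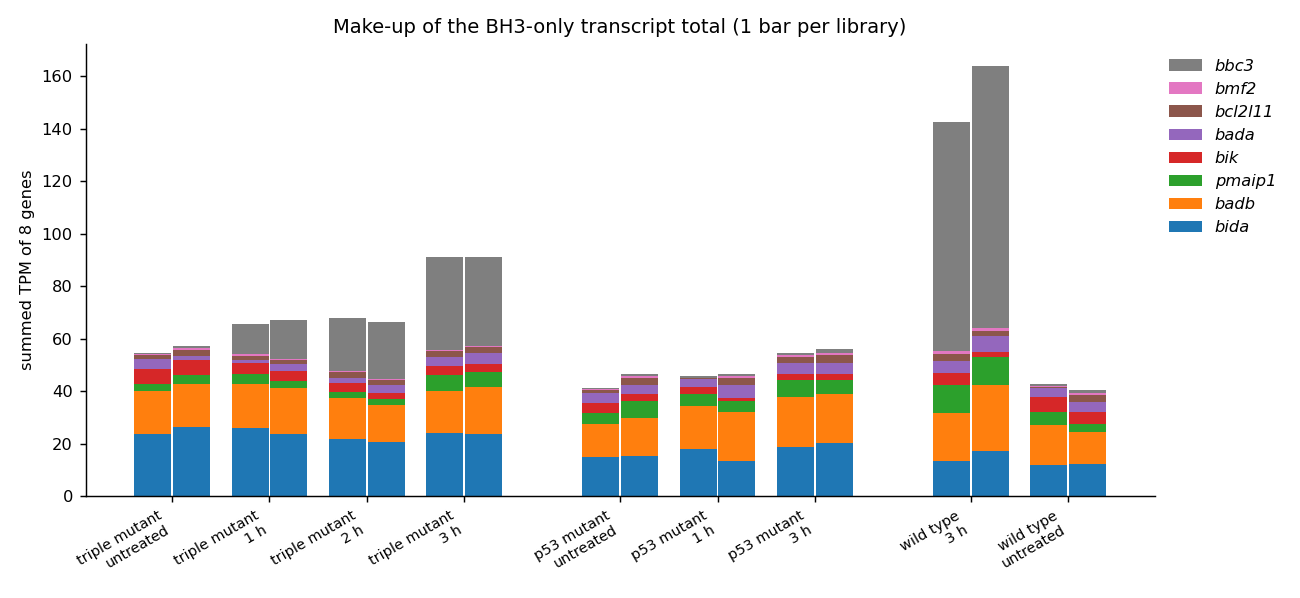
Summed TPM (y axis, from 0) of the 8 BH3-only genes in each of the 18 libraries (1 bar each), by genotype and time, stacked by gene. The bbc3 segment is 37.1% to 38.8% of the bar in the triple mutant at 3 h and 60.9% to 61.3% in the wild type at 3 h.

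The noxa gene pmaip1 (ENSDARG00000089307), whose protein binds Mcl1, was called higher in the wild type at 3 h. It was called in no comparison within the triple or p53 mutant, nor in any difference of responses between genotypes. In the triple mutant it stood at 2.70 and 3.35 TPM without irradiation, 3.82 and 2.82 TPM at 1 h, 2.29 and 2.22 TPM at 2 h and 6.17 and 5.82 TPM at 3 h. The 2 h libraries were the lowest of the table and the 3 h libraries the highest. Against untreated libraries alone, 17.2% of all genes lay below without overlap at 2 h, and 39.3% lay above at 3 h. The changes against untreated were 0.10 (SE 0.227) at 1 h, -0.30 (SE 0.227) at 2 h and 0.80 (SE 0.227) at 3 h, and none was called (limma adjusted p = 1, 0.831 and 0.329). The change at 3 h was called in the fit within the triple mutant table (limma adjusted p = 0.0324), where 866 of the 18575 genes were called.

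In the wild type pmaip1 rose to 10.52 and 10.62 TPM at 3 h, against 4.75 and 3.00 TPM in untreated embryos. The mean at 3 h was 2.73 times the untreated one, and the rise of 1.27 (SE 0.227) was called (limma adjusted p = 0.00992). The call was lost with median-of-ratios scaling (0.96, adjusted p = 0.137), in the fit within the table (adjusted p = 0.382), and without 3 h replicate 1, 3 h replicate 2 or untreated replicate 2 (adjusted p = 0.0628, 0.0925 and 0.0593).

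The p53 mutant had pmaip1 levels of 4.20 and 6.28 TPM without irradiation, 4.50 and 4.39 TPM at 1 h and 6.55 and 5.42 TPM at 3 h. Both irradiated groups overlapped with the untreated one, and the change at 3 h was 0.18 (95% interval -0.32 to 0.67, limma adjusted p = 0.874). The response of the p53 mutant minus that of the wild type was -1.09 (SE 0.321, limma adjusted p = 0.448). Without the libraries of high 5.8S content this difference was -1.60, and without those of low content it was -0.59. Each of these fits left 1 untreated library per genotype compared. The triple mutant response at 3 h minus that of the wild type was -0.47 (95% interval -1.17 to 0.23) and was not called. Minus the p53 mutant response it was 0.62 (95% interval -0.08 to 1.32), also not called.

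**Figure D3:**
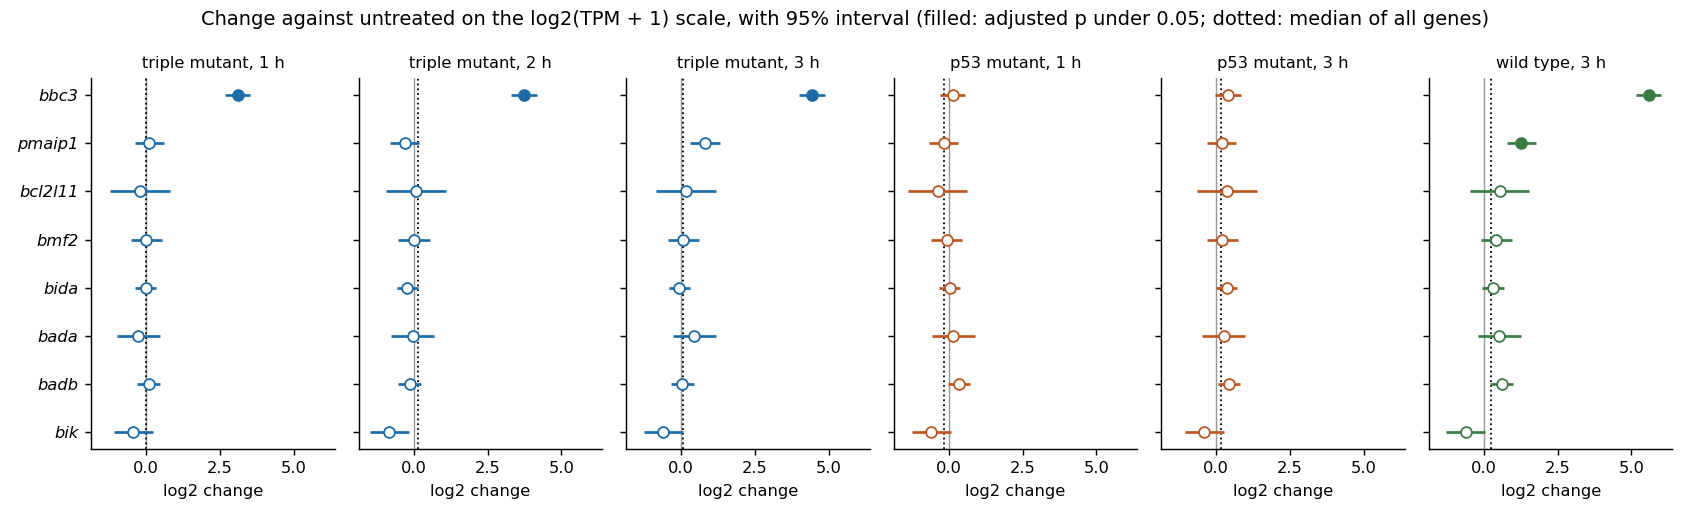
Change of each BH3-only gene against untreated embryos of the same genotype on the log2(TPM + 1) scale (x axis), with the 95% interval of the fit, 1 panel per irradiated group. Filled points passed an adjusted p of 0.05 and the dotted line is the median change of all 18575 genes. bbc3 is filled in the 3 triple mutant panels and the wild type panel, and pmaip1 in the wild type panel.

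Across the BH3-only genes, 1 of 8 was called higher in the triple mutant at 1 h, at 2 h and at 3 h, where 0.0431%, 0.102% and 0.598% of all genes were called higher. The wild type had 2 of 8 called higher at 3 h, against 3.11% of all genes. Counts in the p53 mutant were 0 of 8 at 1 h and 0 of 8 at 3 h, where limma called 0.00538% and 0.458% of all genes in either direction. At an unadjusted p under 0.05 the p53 mutant had none of the 8 at 1 h and badb at 3 h. The share of all genes under that unadjusted rule was not counted, so it has no background here. For the step from 1 h to 3 h in the triple mutant the count was 1 of 8, against 0.334% of all genes higher. For the differences between responses 1 of 8 was called higher in the triple mutant minus the p53 mutant at 3 h and at 1 h (0.237% and 0.0215% of all genes), and 1 of 8 lower in the p53 mutant minus the wild type (0.345%). The gene was bbc3 in each of these counts, with pmaip1 in addition in the wild type. The median change of the 8 genes at 1 h, 2 h and 3 h was -0.01, -0.09 and 0.11 in the triple mutant, beside medians of 0.00, 0.16 and 0.07 over all genes. It was -0.02 at 1 h and 0.30 at 3 h without p53, beside -0.15 and 0.17 over all genes, and 0.53 in the wild type, beside 0.23 over all genes.

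The remaining genes were not called in any comparison. The Bad gene badb (ENSDARG00000054937) stood at 18.33 and 25.09 TPM in the wild type at 3 h, against 15.34 and 12.32 TPM in untreated embryos. The libraries did not overlap, as for 36.0% of all genes in the higher direction, and the change of 0.61 (SE 0.175, limma adjusted p = 0.0834) was 0.31 with median-of-ratios scaling (adjusted p = 0.7). It was called without the 3 libraries of high 5.8S content (0.75, limma adjusted p = 0.00844), without the 3 of low content (0.46, adjusted p = 0.034), and without either p53 mutant library at 1 h. Embryos of the p53 mutant had badb at 12.67 and 14.77 TPM without irradiation, 16.60 and 18.61 TPM at 1 h and 19.09 and 18.49 TPM at 3 h. Its change there was 0.34 (SE 0.175) at 1 h and 0.43 (SE 0.175) at 3 h, with limma adjusted p of 1 and 0.414. Triple mutant libraries held between 13.97 and 17.66 TPM of badb at all times, with changes of 0.08, -0.14 and 0.03 at 1 h, 2 h and 3 h.

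Its duplicate bada (ENSDARG00000087993) had lower levels, 1.27 to 6.23 TPM over the 18 libraries. The untreated triple mutant pair held 3.80 and 1.39 TPM, a range that covers 4 of the 6 irradiated libraries of that genotype. Wild type bada stood at 4.89 and 6.23 TPM at 3 h, against 3.37 and 3.70 TPM without irradiation, a change of 0.53 (95% interval -0.20 to 1.25, limma adjusted p = 0.474).

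The Bid gene bida (ENSDARG00000069290) had the lowest standard error of the 8. Its changes against untreated embryos lay between -0.22 (triple mutant at 2 h) and 0.36 (p53 mutant at 3 h), each with an SE of 0.166, and none was called. In the wild type it stood at 13.40 and 17.14 TPM at 3 h, against 11.87 and 12.25 TPM in untreated embryos (0.31, limma adjusted p = 0.381). The untreated triple mutant mean was 2.07 times the untreated wild type mean, the highest such ratio among the 8 genes.

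The gene bik (ENSDARG00000045549), named for a Bcl2-interacting killer protein of the endoplasmic reticulum in mammals, was the one gene whose irradiated libraries lay below the untreated libraries in all 6 comparisons. In the triple mutant it stood at 5.69 and 5.72 TPM without irradiation, 4.08 and 3.77 TPM at 1 h, 3.28 and 2.34 TPM at 2 h and 3.72 and 3.10 TPM at 3 h. The p53 mutant had 3.86 and 2.66 TPM without irradiation, 2.57 and 1.20 TPM at 1 h, and 2.08 and 2.30 TPM at 3 h. The wild type had 4.50 and 2.02 TPM at 3 h, against 5.92 and 4.58 TPM in untreated embryos. Of all genes tested, 0.275% lay below in all 6 comparisons, which share the untreated libraries within a genotype. No change of bik was called. The largest, -0.83 (SE 0.303) in the triple mutant at 2 h, had a limma adjusted p of 0.517 (unadjusted 0.0185) and was called in the fit within the table (adjusted p = 0.0212). At 3 h the changes were -0.61 in the triple mutant, -0.40 in the p53 mutant and -0.61 in the wild type (SE 0.303 each), and they kept their sign with median-of-ratios scaling. Single libraries moved these values: leaving out 3 h replicate 1 gave a wild type change of -1.04 and leaving out 3 h replicate 2 one of -0.18, and the p53 mutant change was -0.20 without untreated replicate 1 and -0.61 without untreated replicate 2. bik was singled out after its values were seen.

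The Bim gene bcl2l11 (ENSDARG00000079144), an activator that FoxO factors are known to induce in mammals, and bmf2 (ENSDARG00000041414), a copy of the Bmf gene, had low levels and, in the groups of unlike 5.8S content, a wide spread between the 2 libraries. bcl2l11 stood at 2.61 and 1.95 TPM in the wild type at 3 h, against 0.40 and 2.60 TPM in untreated embryos. The p53 mutant levels were 1.11 and 2.77 TPM without irradiation, 0.40 and 2.38 TPM at 1 h, and 2.30 and 2.98 TPM at 3 h. For bmf2 the wild type had 1.02 and 1.09 TPM at 3 h, against 0.41 and 0.65 TPM, and the p53 mutant 0.28 and 0.92 TPM untreated, 0.14 and 0.95 TPM at 1 h, and 0.76 and 0.84 TPM at 3 h. In each of the 3 groups with unlike 5.8S content, the library of high content was the lower one for both genes, and also for bbc3. Libraries of high content had fewer genes at 1 TPM or more. The numbers were 16003 against 17182 in the untreated p53 mutant, 14057 against 17396 at 1 h, and 16262 against 17419 in the untreated wild type. The share of all genes with this order was not counted.

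**Figure D4:**
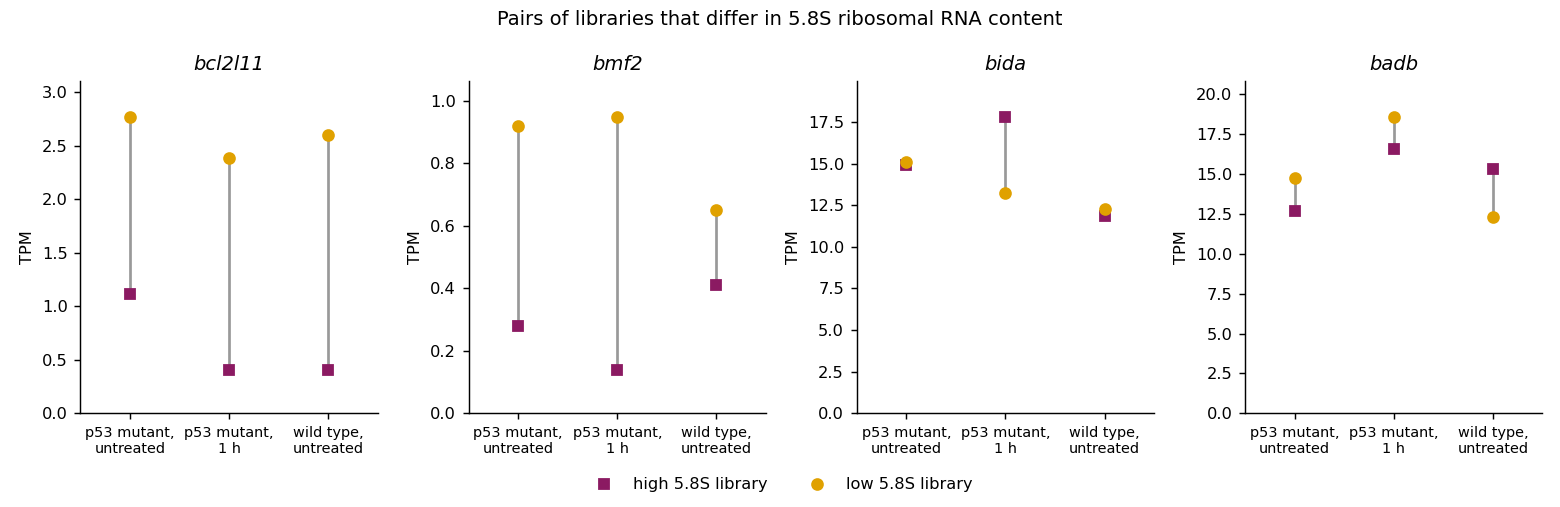
TPM (y axis, from 0) of bcl2l11, bmf2, bida and badb in the 3 groups whose libraries differ in 5.8S ribosomal RNA, with squares for the library of high content and circles for that of low content. For bcl2l11 the squares lie at 0.40 to 1.11 TPM and the circles at 2.38 to 2.77 TPM, while for bida and badb the order differs between groups.

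Results for these 2 genes followed the choice of library. The change of bcl2l11 in the wild type at 3 h was 0.54 (SE 0.463, limma adjusted p = 0.618). It was 1.22 without the libraries of low 5.8S content and -0.14 without those of high content, in fits that left 1 untreated library. These values in the p53 mutant at 3 h were 0.36, 0.78 and -0.06. For bmf2 in the wild type they were 0.43 (limma adjusted p = 0.408), 0.54 and 0.32. The filter let bmf2 in only through the 2 wild type libraries at 3 h, which favours a rise there, so no call is read from these values. The part of library quality in these values was not tested. In the triple mutant, where all libraries were listed at 0 for 5.8S RNA, bcl2l11 stayed between 1.40 and 2.44 TPM and bmf2 between 0.46 and 0.69 TPM, and the changes at 3 h were 0.16 and 0.07.

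Genes that act around the BH3-only proteins were taken from lists chosen with earlier results of these data known. Their counts at 3 h stand beside 0.598% of all genes called higher in the triple mutant, 0.458% called in either direction in the p53 mutant and 3.11% called higher in the wild type. Of 5 tested protective Bcl2 genes, 0 were called in the triple mutant at 3 h, and 1 in the p53 mutant and 1 in the wild type. It was mcl1b (ENSDARG00000008363), an Mcl1 gene, at 113.05 and 88.02 TPM in the p53 mutant at 3 h, against 54.37 and 60.66 TPM untreated, and at 124.29 and 118.38 TPM in the wild type at 3 h, against 74.90 and 65.52 TPM untreated. Its changes of 0.79 (limma adjusted p = 0.0405) and 0.78 (adjusted p = 0.0119) both lost their calls with median-of-ratios scaling and in the fits within the tables, and when any 1 of several libraries was left out (adjusted p up to 1 in the p53 mutant and 0.511 in the wild type). The triple mutant change was 0.03. Of the 2 Bax-type genes 1 rose, BAX (ENSDARG00000020623), a pore-forming protein gene, by 1.45 (limma adjusted p = 0.0126) in the triple mutant and 1.60 (adjusted p = 0.00352) in the wild type at 3 h. The call in the triple mutant was lost without any 1 of the 4 libraries compared (adjusted p up to 0.176), and the wild type call in the fit within the table (adjusted p = 0.181).

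Of 10 tested apoptosome and caspase genes, 1 rose in the triple mutant, 0 in the p53 mutant and 2 in the wild type at 3 h, where 0.598% (higher), 0.458% (either direction) and 3.11% (higher) of all genes were called. casp8 (ENSDARG00000058325), encoding the caspase that cuts Bid, rose by 2.55 in the triple mutant (limma adjusted p = 8.24e-06) and by 3.21 in the wild type (adjusted p = 6.34e-07), and its p53 mutant response minus that of the wild type was -2.97 (adjusted p = 9.87e-05). diabloa (ENSDARG00000104172), an antagonist of caspase inhibitors, rose by 1.56 in the wild type (limma adjusted p = 0.00568), a call lost in the fit within the table and without 3 h replicate 2 (adjusted p up to 0.376). Of 2 atypical BH3 genes, BNIP3 and BECN1, 0 were called in these 3 comparisons. Of 10 tested regulators, 2 rose by 3 h in the triple mutant, 0 in the p53 mutant and 2 in the wild type, namely mdm2, which encodes an inhibitor of p53, and the FoxO gene foxo3b. In the triple mutant they rose by 3.80 and 3.43 (limma adjusted p = 0.000755 and 0.00904), and in the wild type by 4.56 and 3.45 (limma adjusted p = 9.31e-05 and 0.00504). The p53 mutant response minus that of the wild type was -4.05 for mdm2 (limma adjusted p = 0.0123), a call lost under some alternatives. For foxo3b this difference was -3.29 and for BAX -1.51 (limma adjusted p = 0.205 and 0.162). Neither was called, though both were under some alternatives. The foxo3b call in the triple mutant was lost without any 1 of the 4 libraries compared (adjusted p up to 0.122).

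Within the triple mutant the genes that rose by 3 h had covered unlike parts of their rise at 1 h. bbc3 had reached 37.0% of its TPM rise at 1 h and 59.9% at 2 h. The same shares were 19.8% and 30.6% for mdm2 (ENSDARG00000033443), 14.1% and 39.2% for foxo3b (ENSDARG00000042904), 15.0% and 25.1% for BAX, and 5.56% and 11.7% for casp8. The mean of pmaip1 was 2.26 TPM at 2 h, below the untreated mean of 3.03 TPM. Differences between genes in these shares were not tested. At 1 h limma called bbc3 alone among these 6 genes. Under other settings mdm2, foxo3b and BAX were called at 1 h as well: mdm2 (1.83, adjusted p = 0.557) in 6 of 27 alternatives (adjusted p down to 1.7e-05), foxo3b (1.24, adjusted p = 1) in 3 (down to 0.000697) and BAX (0.33, adjusted p = 1) in 2 (down to 0.0453).

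**Figure D5:**
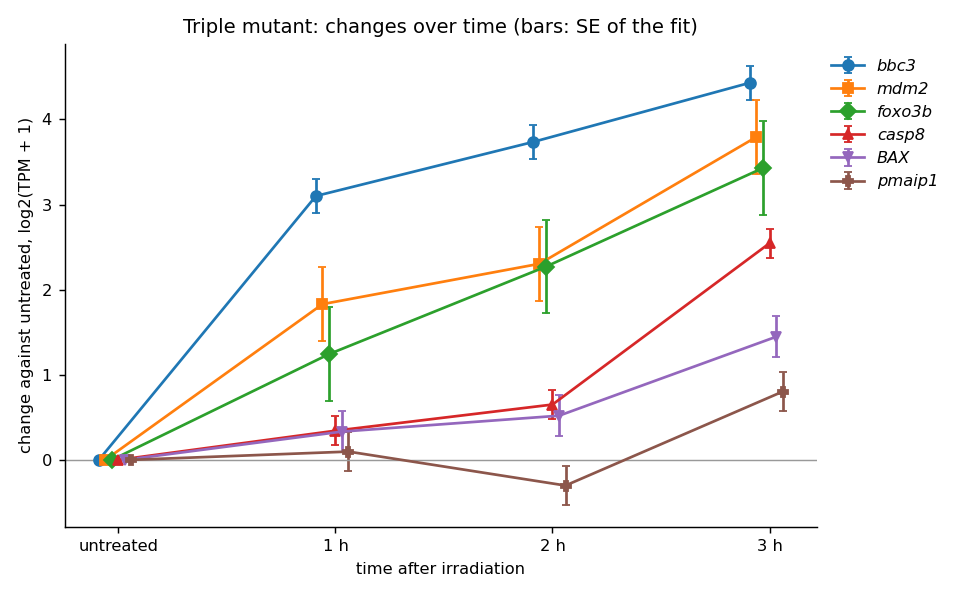
Change against untreated triple mutant embryos on the log2(TPM + 1) scale (y axis, mean with the SE of the fit) at 1 h, 2 h and 3 h after irradiation, for bbc3, pmaip1 and 4 genes around them. bbc3 stands at 3.10 at 1 h, above the others (-0.30 is the lowest value, pmaip1 at 2 h).

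The pattern of bbc3 over the 9 group means was most like that of pik3r3a (ENSDARG00000103038), a regulatory subunit gene of phosphoinositide 3-kinase (Pearson r = 0.990), followed by si:ch1073-170h8.3 (0.989), the sestrin gene sesn4 (0.986), mdm2 (0.985) and RASL11B (0.984), among 8236 genes whose group means span at least 1 log2 unit. For pmaip1 the closest were si:ch211-269k10.2 (0.969), si:ch73-314g15.3 (0.960), SOX7 (0.943), ENSDARG00000094309 (0.942) and amn1 (0.936). bbc3 and pmaip1 correlated with each other at 0.359. These values describe 9 points that share libraries and scaling, and they carry no test.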

How the data were processed

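The authors deposited 3 tables of TPM, 1 per genotype and 1 column per library (18 libraries). The build GRCz11 and, without their roles, RSEM 1.3.3, HTSeq 0.12.3, STAR 2.7.3a, DESeq2 1.42.1 and R 4.3.3 are given per the submitters' processing notes, and the strand setting is not given in the sources used here. Per the labels, libraries were poly(A)-selected and sequenced at 2 centres, not given per library. Symbols came from a gene name table (28988 of 32057 genes).

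Values were taken as log2(TPM + 1), so fold changes of low genes are understated. The 18575 genes that reached 1 TPM in 2 or more libraries were fitted with limma 3.58.1 in R 4.3.3 as 9 groups sharing 1 spread per gene (trended, 9 residual and 2.87 prior degrees of freedom), for 11 comparisons, each within a table or a difference of such. Tests were two-sided, adjusted by Benjamini and Hochberg over all genes, called under 0.05. An exact permutation of 2 against 2 libraries cannot go below p = 0.333. The script was checked on simulated data. Named genes are all members, up to 4 called genes per list, and the 5 genes most like bbc3 and pmaip1. The results of 1 gene are not reported here. Members and lists were chosen with earlier results of these data known.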

Additional observations from a re-analysis of the deposited data

Results flagged for a closer look

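The response of bbc3 differed between genotypes in 3 comparisons, each by a test of the difference itself. It was higher in the triple mutant than in the p53 mutant by 4.04 (SE 0.279, limma adjusted p = 2.15e-05) at 3 h and by 2.97 (SE 0.279, limma adjusted p = 0.00192) at 1 h on the log2(TPM + 1) scale. In the p53 mutant at 3 h it differed from the wild type by -5.19 (SE 0.279, limma adjusted p = 1.8e-06). All irradiated libraries lay above the untreated ones in the triple mutant and the wild type, and in the p53 mutant those at 3 h did and those at 1 h overlapped with them. Of all genes tested, 20.9%, 53.3% and 39.3% lay above in the triple mutant at 1 h, 2 h and 3 h. At 3 h the share was 36.4% in the p53 mutant and 36.0% in the wild type.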

How the results depend on the processing

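Of 88 values (8 genes in 11 comparisons), 9 were called. Each alternative run kept 7 of these calls, the others being pmaip1 in the wild type and the step of bbc3 from 1 h to 3 h in the triple mutant. Of the 79 values not called, 16 were called under at least 1 alternative, 0 with the other sign, and 41 changed sign under at least 1.

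The number of genes called was 2 in place of 1 in the triple mutant at 2 h (bik added) and at 3 h (pmaip1 added) in the fit within the table. That fit called 3162 and 866 of the 18575 genes there, in place of 41 and 139. For the step from 1 h to 3 h it was 0 with a pseudocount of 0.1 TPM, where 48 genes were called over the whole table. It also moved with some single libraries left out. In the wild type it was 1 in place of 2 with median-of-ratios scaling and in the fit within the table, 3 without the libraries of high content (badb added), 6 without those of low content, and 1 to 3 leaving out 1 library. In the p53 mutant at 3 h it was 4 in place of 0 without the libraries of low content (bbc3, bcl2l11, bmf2, badb). For the triple mutant minus the wild type it was 1 in place of 0 with a pseudocount of 5 TPM, where 16 genes were called over the whole table in place of 11. For the p53 mutant minus the wild type it stayed at 1 under every alternative that kept 2 libraries in each group. Leaving out the libraries of high or of low 5.8S content (3 each) leaves 3 groups with 1 library each. Those groups are assumed to vary like the others, and unlike pairs leave the shared spread. No count of BH3-only genes is given from those fits. The causes of these differences were not tested. Differences between genotypes have no fit within a table.

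With median-of-ratios scaling the mean summed TPM was 65.0, 78.6 and 100.03 in the triple mutant untreated, at 1 h and at 3 h, in place of 55.9, 66.4 and 91.2. For the p53 mutant untreated, at 1 h and at 3 h it was 41.2, 52.6 (SD 24.6, n = 2) and 45.0, in place of 43.8, 46.2 (SD 0.643, n = 2) and 55.2. In the wild type it was 40.1 (SD 12.3, n = 2) untreated and 117 at 3 h, in place of 41.6 (SD 1.85, n = 2) and 153. This scaling brought the median change of all genes in the wild type to -0.02, in place of 0.23.

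Counts over all genes also moved. Those of 15, 41 and 139 in the triple mutant at 1 h, 2 h and 3 h ranged from 5 to 411, 11 to 3900 and 64 to 1029, and the 70 from 1 h to 3 h from 24 to 450. In the p53 mutant the 1 at 1 h and 85 at 3 h ranged from 0 to 6140 and 1 to 8485, and the 702 in the wild type from 64 to 10628. For the differences, 52 and 5 (triple minus p53 mutant at 3 h and 1 h), 11 (triple mutant minus wild type) and 71 (p53 mutant minus wild type) ranged from 30 to 4344, 2 to 3759, 5 to 5329 and 41 to 1425. Each highest count came from leaving out one of the 5.8S sets.

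The replicate numbers were not taken as pairs, since not every pair of groups reached a correlation of 0.1. Deviations of same-numbered libraries correlated at -0.10 to 0.17 in the triple mutant, in the p53 mutant at 0.79 between untreated and 1 h and at 0.04 and 0.03 for the other pairs, and at -0.34 in the wild type. With a replicate block the counts of BH3-only genes called stayed at 1, 1, 1 and 1 for the triple mutant, 0 and 0 for the p53 mutant, 2 for the wild type, and 1, 1, 0 and 1 for the differences. Crossing the wild type numbers, added after seeing the data, gave the same counts and 797 genes in the wild type.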
